A study of Mus musculus with 12 samples.

Results

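The hypoxia response and glycolysis genes described here are 36 genes picked by symbol from a deposited expression table of 18180 genes. Of these, 19 are regulators or targets of the hypoxia-inducible factors (HIF) that are not enzymes of glycolysis, and 17 are glycolytic enzymes. All 36 passed the authors' filter on low counts, and the lowest count in any library was 21.2 reads, for *Ankrd37*. In cells that lack oxygen, the HIF alpha subunits encoded by *Hif1a* and *Epas1* escape destruction, because the prolyl hydroxylases of the Egln family need oxygen to mark them for the VHL protein. The stabilised subunits pair with ARNT and raise genes of vessel growth, mitochondrial turnover, collagen modification and glycolysis, the pathway that turns glucose into pyruvate and lactate. In GBM these genes are best known from cells around necrotic tissue, and much of the control acts on HIF protein, which RNA levels do not show.

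Bulk RNAseq was made from 3 mouse GBMs, named T3, T4 and T5, after EGFR+ cells of each had been sorted into 4 populations (PDGFRA+, PDGFRA-, GAL1+ and GAL1-), which gives 12 libraries and 3 per population. All animals carried a conditional human *EGFR* transgene switched on by Cre, constitutive loss of *Cdkn2a* (Cdkn2A−/−) and a conditional luciferase reporter, on a mixed background (C57Bl/6J, Balb/cJ, SJL, 129S4 and FVBN/J). A lentivirus that expresses Cre was injected into the striatum of adult mice, and which of the study's viruses began these tumors, with or without the EGFR ligand TGFa beside Cre, is not stated. Tumors were taken at end stage without treatment. The PDGFR gate and the Galectin-1 gate were set in separate sorts of the same tumor, so cells of the 4 populations can overlap, and no tumor-free brain was sequenced in this experiment. Values are in log2 CPM, the log2 of counts scaled to the size of the library. Recovered reads in T3, T4 and T5 were 18522549, 10768492 and 18520302 in PDGFRA+ cells and 16516049, 9851175 and 12062615 in PDGFRA- cells. The Galectin-1 sort gave 17486645, 13788453 and 14741665 for GAL1+ cells and 24117541, 21728280 and 22742465 for GAL1- cells. GAL1- libraries were the deepest, and the floor of detection, set at 3 reads and covering counting error only, lay at a log2 CPM of −2.99 to −1.44 depending on the library.

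Before the members, *Cdkn2a* was read as an engineered gene. It had a log2 CPM of 2.32 to 4.27 over the 12 libraries, and the table does not separate exons, so the deleted part cannot be seen. The human transgene has no entry of its own. PDGFRA- cells of T5 stood apart from the other PDGFRA- libraries. On the first principal component of all genes, which held 58.5% of the variance, they were at 82.36, against −13.49 in T3, −16.77 in T4 and 63.76 to 120.09 among GAL1+ libraries. Counts of called genes for PDGFRA- cells are therefore given with and without that library, as are the order of the populations and the ratios between isoforms.

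Markers of other cell types moved with the gates. The 12 pan-leukocyte markers were all higher in GAL1+ than in GAL1- cells, and *Laptm5*, an endosomal and lysosomal membrane protein of blood cells, was the most abundant. Summed over the list, T3, T4 and T5 had 85.3, 227 and 188 CPM in GAL1- cells, 701, 1622 and 1667 in PDGFRA+ cells, 1243, 737 and 3356 in PDGFRA- cells and 3109, 3702 and 4424 in GAL1+ cells, so the PDGFRA- library that stood apart was also the richest of its population in them. *Ptprc*, which encodes the CD45 antigen that the sort is described as lacking, was at a log2 CPM of 3.70, 5.18 and 4.94 in GAL1- cells of T3, T4 and T5 and higher by 4.04 in GAL1+ cells, in 3 of 3 tumors without overlap. All 9 microglia markers, 9 macrophage markers (most abundant *Lyz2*) and 7 pericyte markers (*Rgs5*) and 9 of 10 endothelial markers (*Flt1*) were also higher in GAL1+ cells, as were 3 of 6 neutrophil markers (*Csf3r*), 1 of 5 erythroid markers (*Hba-a1*) and 1 of 8 T and NK cell markers (*Klrb1c* the most abundant), where 1 was lower. All 7 oligodendrocyte-lineage markers (*Ptprz1*), which glioma cells also express and which include the gate's own *Pdgfra*, were lower, with 3 of 7 astrocyte markers (*Slc1a2*) and 3 of 7 neuron markers (*Nefl* on average, carried by T5). At or under the floor were *Fcrls* and *Emcn* in GAL1- cells of T5, *Mmp8* in T4 and *Higd1b* in T3 of the same gate, *Cd3d* in GAL1+ cells of T3, *Gad2* in PDGFRA- cells of T4, *Slc17a7* in those of T5, *Rbfox3*, *Slc17a7*, *Gad2* and *Nefl* in GAL1+ cells of T4, and *Ngp* and *Alas2* in 4 libraries each. In bulk libraries, fewer cells of a type and less RNA per cell cannot be told apart, and what part these cells have in the results below was not tested.

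The comparison of the gates of the Galectin-1 sort asks how EGFR+ cells with surface Galectin-1 differ from those without it. The HIF and glycolysis genes did not move as a block. GAL1+ cells had more *Hif1a*, *Hmox1*, *Mxi1* and *Ndrg1* among the HIF genes and more *Hk2*, *Gapdh* and *Pkm* among the enzymes, and less *Epas1*, *Egln1*, *Plod2*, *Hk1*, *Pfkm* and *Aldoc*. With limma, at an adjusted p under 0.05 over all genes (called from here on), 26 of 36 members (72.2%) were called, beside 58.2% of all genes. Higher in GAL1+ cells were 18 members (beside 28.9% of all genes) and lower were 8 (22.2%, beside 29.3%). Among the 19 HIF genes, 10 rose, 5 fell and 4 were not called, with a median log2 fold change of 0.53. Among the 17 enzymes, 8 rose, 3 fell and 6 were not called, with a median of 0.33, and the median of all genes was −0.03. With quantile normalization the split was 12 higher and 9 lower and the median log2 fold change 0.17 for the HIF genes and 0.07 for the enzymes, and over the fits that left out a tumor or a library the median of the HIF genes was 0.25 to 0.68 and that of the enzymes 0.14 to 0.48, both lowest without T5. Of the genes of the model and the gates, *Lgals1*, which encodes Galectin-1, rose by 1.29 (adjusted p = 0.000967), and *Egfr*, the entry of the mouse receptor gene, fell by 2.10 (0.000461) and *Cdkn2a* by 1.49 (0.000648), each in 3 of 3 tumors without overlap. Whether reads of the human transgene were counted under *Egfr* cannot be told from these values.

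**Figure D1:**
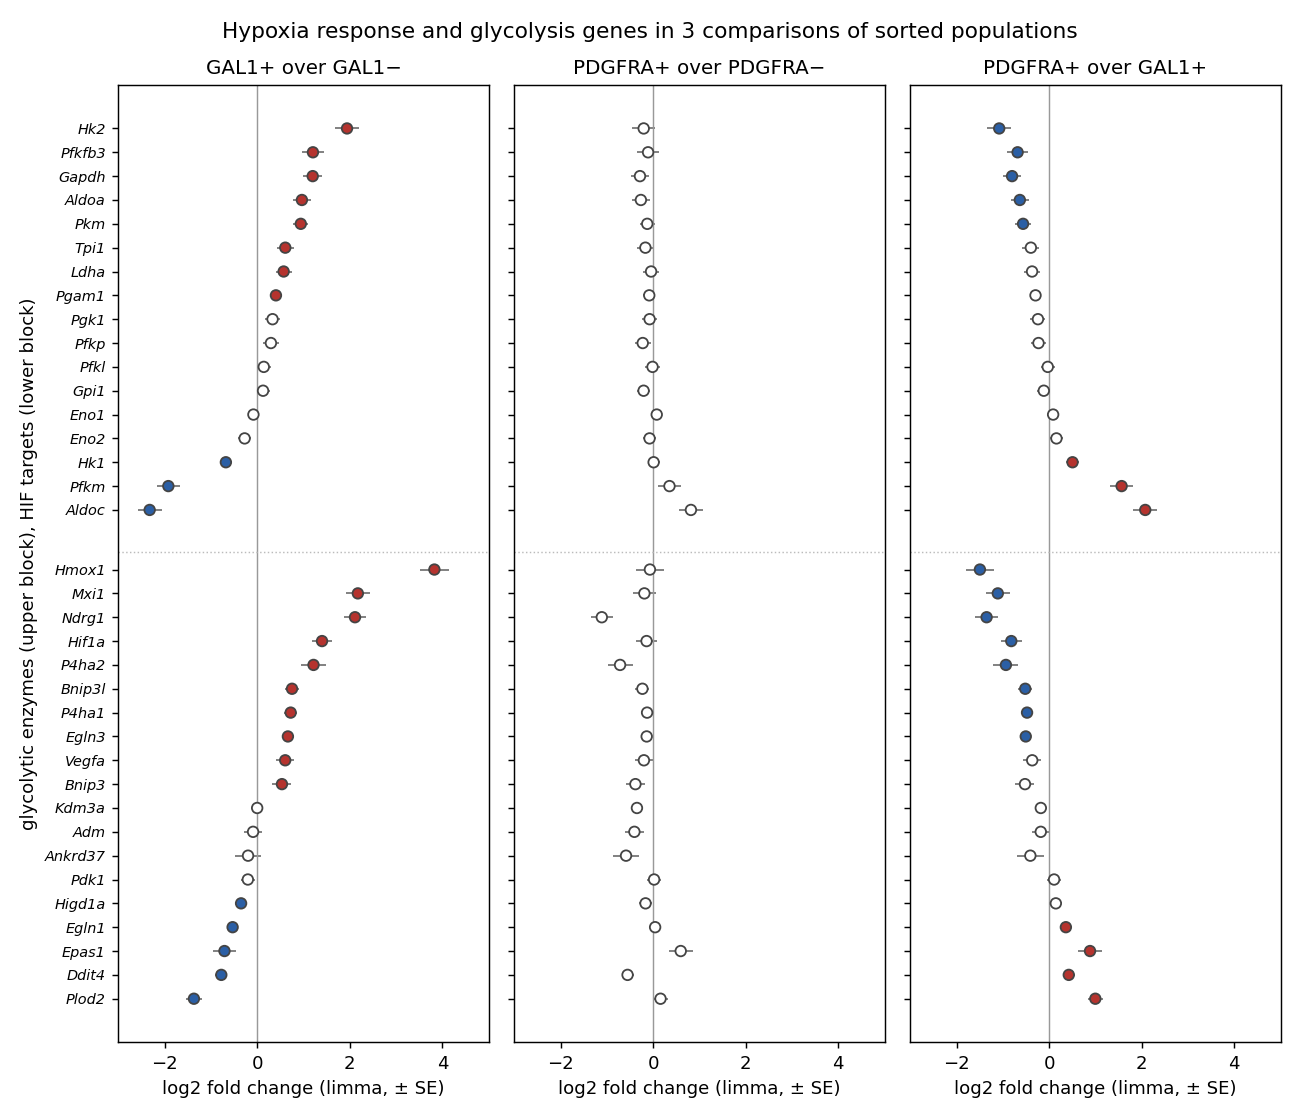
Log2 fold change from limma (x axis, ± SE) of the 17 glycolytic enzymes (upper block) and the 19 HIF targets (lower block) in 3 comparisons of sorted populations, with 3 libraries in each population. Filled points passed the adjusted threshold, red for higher and blue for lower in the population named before "over", and open points did not. GAL1+ over GAL1- cells runs from −2.33 for *Aldoc* to 3.83 for *Hmox1*, no point is filled for PDGFRA+ over PDGFRA- cells, and with quantile normalization *Vegfa*, *Bnip3*, *Higd1a*, *Tpi1*, *Pgam1*, *Pkm* and *Ldha* lost and *Eno1* and *Eno2* gained a call in the left panel.

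The alpha subunits went opposite ways. *Hif1a* had a log2 CPM of 7.67, 7.61 and 7.46 for GAL1-, 7.99, 8.19 and 8.31 for PDGFRA+, 8.20, 7.78 and 8.94 for PDGFRA- and 8.71, 8.86 and 9.38 for GAL1+ libraries of T3, T4 and T5. Every GAL1+ library was above every GAL1- library, and T5 was the highest of the GAL1+ and of the PDGFRA- libraries. GAL1+ over GAL1- cells gave it a log2 fold change of 1.40 (2.64-fold, SE 0.22, adjusted p = 0.000542), positive in 3 of 3 tumors. *Epas1*, which encodes the HIF alpha subunit best known from endothelial cells, was at 7.04, 6.99 and 7.09 for GAL1-, 7.53, 7.29 and 6.82 for PDGFRA+, 7.29, 6.81 and 5.75 for PDGFRA- and 6.92, 6.49 and 5.58 for GAL1+ libraries. The GAL1- libraries lay within a narrow band while GAL1+ cells spread below it without overlap, least in T3 and most in T5. The log2 fold change of *Epas1* was −0.71 (SE 0.26, adjusted p = 0.0372), negative in 3 of 3 tumors, and it was no longer called without T4 (−0.82, adjusted p = 0.0946), T5 (−0.31, 0.133) or GAL1- cells of T5 alone (−0.35, 0.163).

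The oxygen-sensing hydroxylases divided in the same way. *Egln1*, the main HIF prolyl hydroxylase in most tissues, had a log2 CPM of 7.65, 7.16 and 6.43 for GAL1-, 7.47, 6.88 and 6.38 for PDGFRA+, 7.44, 6.79 and 6.38 for PDGFRA- and 7.13, 6.38 and 6.14 for GAL1+ libraries. The populations overlapped because tumors differed more than gates, and T3 was above T4 and T4 above T5 in all 4 populations. Within each tumor GAL1+ cells were lower, and the log2 fold change came to −0.53 (SE 0.11, adjusted p = 0.00223, and 0.0537 without T4). *Egln3*, a hydroxylase that HIF itself induces, was at 5.02, 4.45 and 5.02 for GAL1-, 5.12, 4.67 and 5.16 for PDGFRA+, 5.34, 4.82 and 5.22 for PDGFRA- and 5.62, 5.34 and 5.51 for GAL1+ libraries. T4 was the lowest tumor in every population, and GAL1+ cells were above GAL1- cells without overlap. *Egln3* rose by 0.66 in log2 terms (SE 0.11, adjusted p = 0.000808), and did so in 3 of 3 tumors. The log2 ratio of *Egln3* to *Egln1* was −2.25 ± 0.73 (SD, n = 3) for GAL1-, −1.92 ± 0.62 for PDGFRA+, −1.74 ± 0.51 for PDGFRA- (−2.10, −1.97 and −1.16 in T3, T4 and T5) and −1.06 ± 0.44 for GAL1+ libraries, and the Galectin-1 gates overlapped, as GAL1- cells of T5 (−1.41) were above GAL1+ cells of T3 (−1.50).

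Among the HIF genes, the widest gaps between the Galectin-1 gates were those of *Hmox1*, *Mxi1* and *Ndrg1*. *Hmox1*, which encodes the heme-degrading enzyme heme oxygenase and is induced by heme and oxidative stress as well, had a log2 CPM of 6.16, 5.99 and 6.58 for GAL1-, 8.07, 8.48 and 9.16 for PDGFRA+, 8.86, 7.63 and 9.45 for PDGFRA- and 10.48, 9.52 and 10.20 for GAL1+ libraries. GAL1+ cells were above all other libraries and GAL1- cells below them. Its log2 fold change was 3.83 (14.2-fold, SE 0.31, adjusted p = 3.93e-05), with every tumor on the same side. *Mxi1*, a MYC antagonist, stood at 5.80, 5.71 and 5.73 for GAL1-, 6.34, 6.82 and 7.25 for PDGFRA+, 6.76, 6.35 and 7.89 for PDGFRA- and 7.62, 7.81 and 8.32 for GAL1+ libraries. The GAL1- libraries lay close together and lay below all others, and T5 was the highest tumor in the other populations. *Ndrg1*, a gene induced by low oxygen in many cell types, was at 4.66, 4.39 and 4.48 for GAL1-, 5.28, 4.76 and 5.77 for PDGFRA+, 6.16, 5.68 and 7.31 for PDGFRA- and 6.65, 6.28 and 6.93 for GAL1+ libraries. It was highest of all in PDGFRA- cells of T5, the library that stood apart. Both rose in 3 of 3 tumors without overlap, *Mxi1* by a log2 fold change of 2.17 (SE 0.26, adjusted p = 0.000113) and *Ndrg1* by 2.11 (SE 0.24, adjusted p = 0.000103).

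The vessel and peptide signals moved less. *Vegfa*, the main angiogenic factor of the HIF response, had a log2 CPM of 9.03, 8.93 and 8.50 for GAL1-, 9.02, 9.10 and 9.07 for PDGFRA+, 9.09, 9.04 and 9.64 for PDGFRA- and 9.26, 9.41 and 9.61 for GAL1+ libraries. GAL1+ cells were above GAL1- cells without overlap, with the widest gap in T5 and the smallest in T3. Its log2 fold change was 0.60 (SE 0.19, adjusted p = 0.0227), positive in 3 of 3 tumors, and the call was lost without T4 (0.67, adjusted p = 0.0666), T5 (0.35, 0.0682) or GAL1- cells of T5 alone (0.35, 0.102) and with quantile normalization (0.17, 0.395). *Adm*, which encodes the vasodilator peptide adrenomedullin, was at 4.21, 3.67 and 4.21 for GAL1-, 3.98, 3.36 and 3.92 for PDGFRA+, 4.55, 4.07 and 3.87 for PDGFRA- and 4.48, 3.75 and 3.58 for GAL1+ libraries. The gates overlapped, with GAL1+ cells above in T3 and T4 and below in T5, and it was not called (log2 fold change −0.09, adjusted p = 0.715, same sign in 1 of 3 tumors).

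The remaining HIF targets are taken by function. The collagen prolyl hydroxylase subunits rose without overlap in 3 of 3 tumors, *P4ha2* by a log2 fold change of 1.22 and *P4ha1* by 0.72, while the collagen lysyl hydroxylase *Plod2* fell by 1.37. *Plod2* was at 6.63, 6.30 and 6.07 for GAL1-, 6.36, 5.87 and 5.64 for PDGFRA+, 6.16, 6.17 and 5.07 for PDGFRA- and 5.46, 5.01 and 4.40 for GAL1+ libraries, and no GAL1+ library reached a GAL1- library. So genes of collagen modification did not share a direction. The mitophagy receptors *Bnip3l* (0.75, groups apart) and *Bnip3* (0.53, groups overlapping) were both higher in 3 of 3 tumors, but *Bnip3* was not called without T3 (0.68, adjusted p = 0.102), T4 (0.67, 0.0530), T5 (0.25, 0.229) or GAL1- cells of T5 alone (0.28, 0.232). *Ddit4*, which encodes an inhibitor of mTORC1 induced by several stresses, was at 4.95, 4.82 and 4.97 for GAL1-, 4.57, 4.35 and 4.76 for PDGFRA+, 5.02, 4.91 and 5.40 for PDGFRA- and 4.34, 3.89 and 4.17 for GAL1+ libraries. It fell between the Galectin-1 gates by 0.78 (adjusted p = 0.000732) in 3 of 3 tumors, and unlike most members it was highest in PDGFRA- cells, above both GAL1 gates in each tumor. *Higd1a*, a mitochondrial protein gene, fell by 0.35 without overlap, with an adjusted p of 0.170 without T3 and 0.335 without T4. Not called were *Pdk1* (−0.20, same sign in 2 of 3 tumors), whose product keeps pyruvate out of the citrate cycle, *Ankrd37* (−0.20, 3 of 3) and *Kdm3a*, a histone demethylase (adjusted p = 0.988, 1 of 3), each with overlapping groups.

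Among the enzymes, hexokinase, the entry step of glycolysis, changed its isoform balance. *Hk2*, the inducible isoform, had a log2 CPM of 6.66, 6.43 and 5.90 for GAL1-, 6.98, 7.39 and 7.20 for PDGFRA+, 7.29, 7.00 and 7.90 for PDGFRA- and 8.26, 8.36 and 8.19 for GAL1+ libraries. GAL1+ cells were above all other libraries and close to each other. Its log2 fold change was 1.94 (3.84-fold, SE 0.25, adjusted p = 0.000187) with the same sign in 3 of 3 tumors. *Hk1*, the constitutive isoform of brain, was at 7.53, 7.40 and 6.93 for GAL1-, 7.43, 7.10 and 6.81 for PDGFRA+, 7.41, 7.38 and 6.52 for PDGFRA- and 6.97, 6.53 and 6.33 for GAL1+ libraries, and the gates overlapped where GAL1+ cells of T3 passed GAL1- cells of T5. *Hk1* fell by 0.68 in log2 terms (adjusted p = 0.00165) and was lower in 3 of 3 tumors. The log2 ratio of *Hk2* to *Hk1* was −0.96 ± 0.09 (SD, n = 3) for GAL1-, 0.08 ± 0.46 for PDGFRA+, 0.29 ± 0.95 for PDGFRA- (−0.13 in T3, −0.38 in T4 and 1.37 in T5) and 1.66 ± 0.33 for GAL1+ libraries, and it did not overlap between the Galectin-1 gates.

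At the phosphofructokinase step, the committed step of the pathway, 1 of 3 subunit genes changed. The muscle-type subunit *Pfkm* was at 6.31, 6.06 and 6.40 for GAL1-, 6.10, 5.79 and 5.80 for PDGFRA+, 6.08, 5.65 and 4.92 for PDGFRA- and 5.09, 3.91 and 4.00 for GAL1+ libraries. GAL1+ cells lay below GAL1- cells without overlap, with a log2 fold change of −1.92 (SE 0.25, adjusted p = 0.000177) in 3 of 3 tumors. *Pfkl* (0.14) and *Pfkp* (0.29) were not called and overlapped, each with the same sign in 2 of 3 tumors. *Pfkfb3*, whose product makes the activator fructose-2,6-bisphosphate, was at 7.01, 7.24 and 6.64 for GAL1-, 7.11, 7.85 and 7.49 for PDGFRA+, 7.21, 7.47 and 8.10 for PDGFRA- and 7.72, 8.51 and 8.26 for GAL1+ libraries. It rose by a log2 fold change of 1.20 (adjusted p = 0.00169) in 3 of 3 tumors without overlap, and T3 was the lowest of the GAL1+ libraries.

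Aldolase, which splits the 6-carbon sugar, showed the largest fall of any member. *Aldoc*, the brain isoform, had a log2 CPM of 7.01, 6.65 and 6.94 for GAL1-, 6.90, 6.54 and 6.42 for PDGFRA+, 6.63, 5.66 and 5.12 for PDGFRA- and 5.43, 3.98 and 4.22 for GAL1+ libraries. Its log2 fold change was −2.33 (5.02-fold, SE 0.26, adjusted p = 9.39e-05), negative in 3 of 3 tumors without overlap. *Aldoc* is also a common marker of astrocytes. *Aldoa*, the ubiquitous isoform, rose by 0.96 (adjusted p = 0.00225) without overlap in 3 of 3 tumors, and the log2 ratio of *Aldoa* to *Aldoc* moved from 1.92 ± 0.21 (SD, n = 3) for GAL1- to 2.50 ± 0.32 for PDGFRA+, 3.58 ± 0.97 for PDGFRA- (2.87 in T3, 3.19 in T4 and 4.68 in T5) and 5.21 ± 0.58 for GAL1+ libraries.

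**Figure D2:**
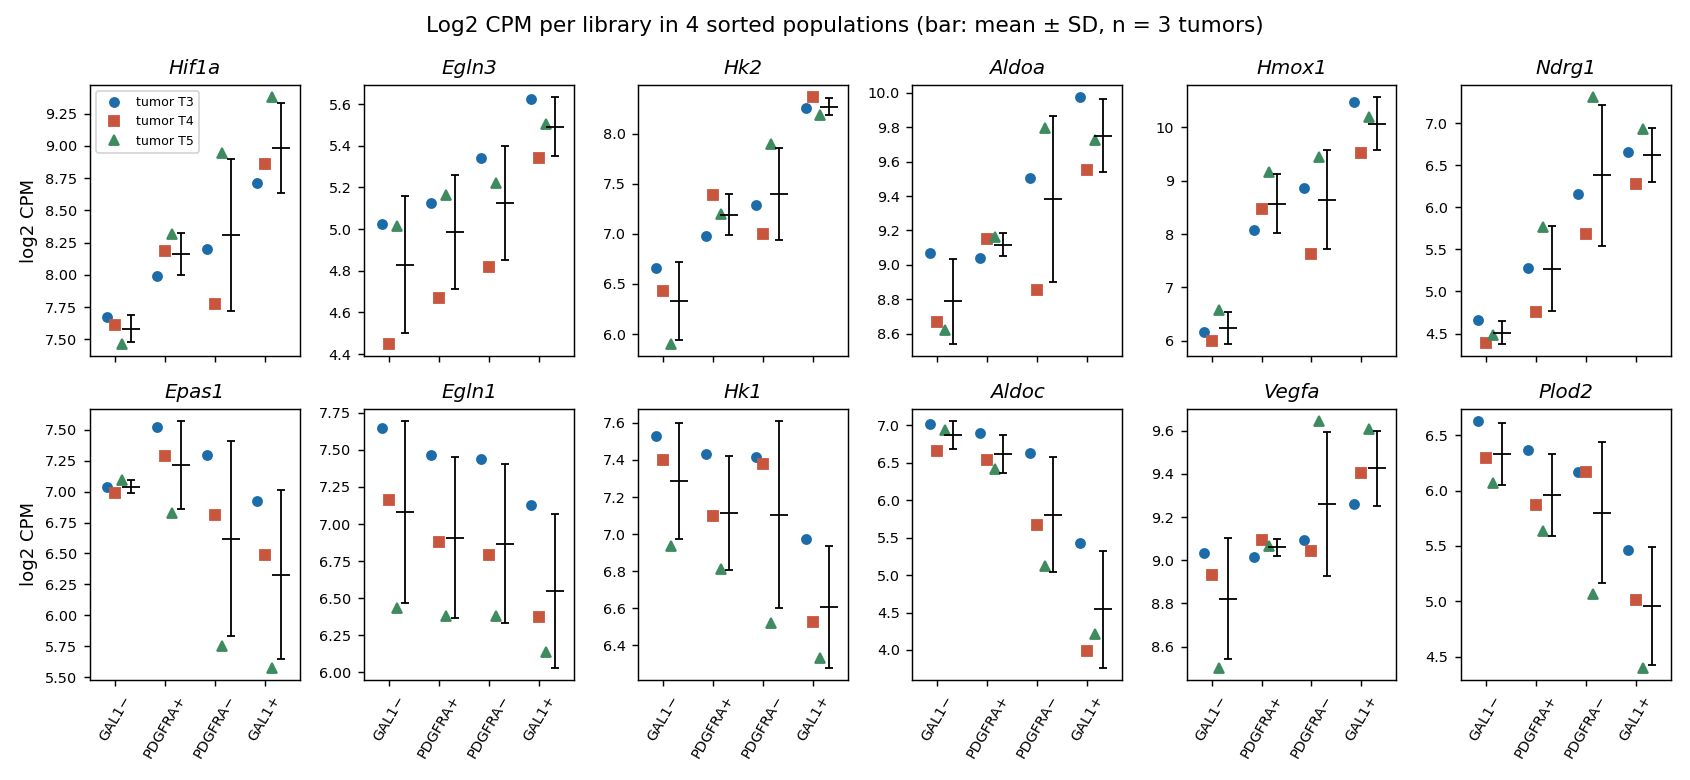
Log2 CPM (y axis, its own range in each panel) of 12 member genes in the 4 sorted populations (x axis), with 1 point per library, tumors by colour and shape, and a bar for the mean ± SD of the 3 tumors. *Hif1a*, *Egln3*, *Hk2* and *Aldoa* have their highest mean in GAL1+ cells and their partners *Epas1*, *Egln1*, *Hk1* and *Aldoc* their lowest, with *Aldoc* between 3.98 and 5.43 in GAL1+ and between 6.65 and 7.01 in GAL1- cells.

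In the lower part of the pathway, from triose phosphate to lactate, 5 enzymes were called higher in GAL1+ cells, most by smaller steps that depend on the scaling. *Gapdh*, the glyceraldehyde-phosphate dehydrogenase, was at 7.66, 7.10 and 7.07 for GAL1-, 7.71, 7.60 and 7.71 for PDGFRA+, 8.21, 7.27 and 8.39 for PDGFRA- and 8.68, 8.23 and 8.52 for GAL1+ libraries. It rose by a log2 fold change of 1.20 (2.29-fold, SE 0.20, adjusted p = 0.000818) in 3 of 3 tumors without overlap, so it is no constant reference between these gates. *Ldha*, which makes lactate, was at 9.01, 8.46 and 8.21 for GAL1-, 8.92, 8.72 and 8.64 for PDGFRA+, 9.18, 8.28 and 8.96 for PDGFRA- and 9.38, 8.89 and 9.12 for GAL1+ libraries. The gates overlapped because GAL1- cells of T3 were above GAL1+ cells of T4, and the log2 fold change was 0.57 (adjusted p = 0.0186, and 0.121 without T5), positive in 3 of 3 tumors. *Pkm*, the pyruvate kinase, rose by 0.94 and the triose isomerase *Tpi1* by 0.61, both without overlap, and the mutase *Pgam1* by 0.40 with overlap, each in 3 of 3 tumors, though without T5 *Tpi1* (adjusted p = 0.0776) and *Pgam1* (0.134) were not called and with quantile normalization *Pkm* (0.0612), *Tpi1* (0.139), *Pgam1* (0.238) and *Ldha* (0.231) were not, which leaves *Gapdh* as the member of this stretch that was called higher under that scaling.

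Other steps did not pass the test. *Pgk1*, the first step that yields ATP, was at 7.75, 7.20 and 7.01 for GAL1-, 7.69, 7.28 and 7.25 for PDGFRA+, 7.93, 6.93 and 7.60 for PDGFRA- and 7.91, 7.32 and 7.73 for GAL1+ libraries, and its log2 fold change was 0.33 (adjusted p = 0.106). It was positive in 3 of 3 tumors but overlapped, and it was called without PDGFRA- cells of T4 (adjusted p = 0.0463). The neuronal enolase *Eno2* was at 6.20, 6.20 and 5.90 for GAL1-, 5.96, 5.98 and 6.00 for PDGFRA+, 6.10, 6.30 and 5.79 for PDGFRA- and 6.00, 5.70 and 5.77 for GAL1+ libraries. Its log2 fold change of −0.27 and that of the common enolase *Eno1* (−0.08) were negative in 3 of 3 tumors with overlap and not called (adjusted p = 0.105 and 0.587), though both were called lower with quantile normalization (adjusted p = 0.0350 and 0.00356). The isomerase *Gpi1* (0.12, adjusted p = 0.470) had the same sign in 1 of 3 tumors. The enolases kept their balance better than the isoform pairs above, as the log2 ratio of *Eno1* to *Eno2* was 2.80 ± 0.35 (SD, n = 3) in GAL1- and 2.99 ± 0.32 in GAL1+ cells.

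Other genes of these pathways also went both ways. Of 48 listed, 44 were measured and 24 passed the test (54.5%, beside 58.2% of all genes), of which 14 were higher in GAL1+ cells and 10 lower. They were 3 higher and 2 lower of 13 genes of the HIF machinery, 9 higher and 5 lower of 20 other HIF targets, and 2 higher and 3 lower of 11 other glycolysis genes. The largest rise was that of *Hk3*, a hexokinase of leukocytes, at 5.50, and the largest falls were *Arnt2*, a neural partner of the alpha subunits, at −2.21 and *Bpgm*, which makes 2,3-bisphosphoglycerate, at −1.81, each with the same sign in 3 of 3 tumors and no overlap. Chosen after their values were seen, the glucose carriers split as the enzymes did, with *Slc2a1* at 1.60 and the neuronal carrier *Slc2a3* at −1.46, both called without overlap in 3 of 3 tumors.

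Calls of 18 of the 26 members held in each of 15 fits that left out a tumor or a library, and 16 of these also in each of 9 alternative fits. Without GAL1- cells of T5, 19 were called, beside 8385 of all genes in place of 10578. Calls lost in some of the 15 were *Vegfa* (without T4, T5, GAL1- T5, GAL1+ T4 or GAL1+ T5, adjusted p of 0.0655 to 0.102), *Ldha* (without T3, T5, GAL1- T5, GAL1+ T4 or GAL1+ T5, 0.0534 to 0.121), *Tpi1* (without T3, T5, GAL1- T5, GAL1+ T3 or GAL1+ T5, 0.0541 to 0.109), *Pgam1* (without T3, T5, GAL1- T3 or T5, GAL1+ T3 or T5, 0.0556 to 0.134), *Egln1* (without T4, 0.0537), *Epas1* (in 9 fits, among them those without T4 or T5, 0.0505 to 0.163), *Bnip3* (in 11 fits, among them each tumor, 0.0520 to 0.232) and *Higd1a* (in 10 fits, among them those without T3 or T4, 0.0571 to 0.335).

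The PDGFR sort asks the same of cells with and without surface PDGFRA. No member was called by limma, as for all genes (0%), and at an unadjusted p under 0.05 there were 6 members, 5 HIF genes and 1 enzyme, beside 11.8% of all genes. The members with the smallest p were *Ndrg1*, whose log2 fold change for PDGFRA+ against PDGFRA- cells was −1.11 (SE 0.24, adjusted p = 0.214, groups overlapping), *Ddit4* with −0.55 (adjusted p = 0.214, no overlap) and *Aldoc* with 0.81 (adjusted p = 0.306, overlapping), each with 1 sign in 3 of 3 tumors. *P4ha2* (−0.72), *Kdm3a* (−0.35) and *Epas1* (0.59) made up the 6. The median log2 fold change was −0.19 over the HIF genes, −0.09 over the enzymes and −0.02 over all genes. The gate's own gene *Pdgfra* was at 10.81, 10.13 and 9.95 in PDGFRA+ and 10.11, 8.62 and 7.36 in PDGFRA- cells of T3, T4 and T5, and was itself not called (log2 fold change 1.60, adjusted p = 0.249). Marker lists were not called either, with 0 of 12 pan-leukocyte and 0 of 7 oligodendrocyte-lineage markers. In 9 alternative fits, and in the 15 that left out a tumor or a library, PDGFRA- cells of T5 included, 0 members were called. Of all genes, 5 were called without PDGFRA- cells of T4 and 0 in the other fits.

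The marker-positive populations were compared because the study set them side by side. PDGFRA+ cells had less *Hif1a*, *Hmox1*, *Ndrg1*, *Mxi1*, *Hk2* and *Gapdh* than GAL1+ cells and more *Aldoc*, *Pfkm*, *Plod2* and *Epas1*. Called were 20 members (55.6%, beside 38.0% of all genes), 7 higher in PDGFRA+ cells (19.4%, beside 20.9%) and 13 lower (36.1%, beside 17.0%). The HIF genes gave 4 higher, 8 lower and 7 not called with a median log2 fold change of −0.41, the enzymes 3, 5 and 9 with −0.24, and the median of all genes was 0.01. With quantile normalization the split was 7 higher and 7 lower, and with median centring 4 and 16. *Aldoc* led the genes that were higher, at 2.08 (SE 0.26, adjusted p = 0.00143), before *Pfkm* at 1.57 (adjusted p = 0.00223) and *Plod2* at 1.00 (adjusted p = 0.00273), all without overlap in 3 of 3 tumors. Lower by most were *Hmox1* at −1.50 (adjusted p = 0.00592), *Ndrg1* at −1.35 (adjusted p = 0.00353), *Mxi1* at −1.11 and *Hk2* at −1.08, again without overlap in 3 of 3 tumors. The regulators *Hif1a* (−0.82, groups apart) and *Epas1* (0.88, groups overlapping) again had opposite signs, as had *Egln3* (−0.51, apart) and *Egln1* (0.36, overlapping), each in 3 of 3 tumors. Pan-leukocyte markers (12 of 12) and macrophage markers (9 of 9) were lower in PDGFRA+ cells. So were 5 of 9 microglia and 4 of 6 neutrophil markers. The oligodendrocyte-lineage markers (7 of 7) were higher, with 3 of 7 astrocyte and 2 of 7 neuron markers. Of 10 endothelial and 7 pericyte markers, 0 were called. Calls in this comparison depended on which tumor or library was left out. Without T3, 3 members were called, beside 2110 of all genes in place of 6900 (*Plod2*, *Pfkm* and *Aldoc*), and those held in all 15 fits that left out a tumor or a library. The count of members moved with that of all genes. It was 12 without T4 (4863 of all genes), 13 without T5 (4267) and 6 without PDGFRA+ cells of T3 (3830). It was 8 without GAL1+ cells of T4 (3863), 9 without PDGFRA+ cells of T5 (3529) and 11 without GAL1+ cells of T5 (5230). Without PDGFRA- cells of T4 it was 24 (7887). *Hmox1* (adjusted p = 0.0886) and *Ndrg1* (0.0616) lost their call without T3 alone. Fold changes moved less than calls there, as *Ndrg1* was at −1.34, *Hif1a* at −0.87, *Epas1* at 1.02 and *Hk2* at −0.98, while *Hmox1* was at −1.04. *Mxi1* and *Hk2* lost it without T3 (0.107 and 0.109) or PDGFRA+ cells of T3 (0.0525 and 0.0557). *Egln3* lost it without T3 (0.0980), T4 (0.0835) or GAL1+ cells of T4 (0.0505), and *Hif1a* without T3 (0.122), GAL1+ cells of T4 (0.0651) or T5 (0.0704) or PDGFRA+ cells of T3 (0.0716) or T5 (0.0822). In all, 17 of the 20 calls were lost in at least 1 of these fits, *Epas1* and *Egln1* included. Among the other pathway genes, 13 of 44 passed (29.5%, beside 38.0% of all genes), with 6 higher in PDGFRA+ cells and 7 lower, with *Arnt2* (1.89) and *Bpgm* (1.52) the highest and *Hk3* (−1.56) the lowest.

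Set against each other, the sorts differed in their signed gate effect for 23 members (beside 51.1% of all genes), with the marker-positive gate first in each sort. With the PDGFR gate turned, 15 members differed (beside 5651 of 18180 genes), and 14 of these were among the 23. With the first choice of sign and without PDGFRA- cells of T5 the count was 19 (beside 8142 of all genes in place of 9290), as *Vegfa*, *Bnip3*, *Tpi1* and *Pgam1* dropped out. For *Ndrg1* the log2 fold change was 2.11 between the Galectin-1 gates and −1.11 between the PDGFR gates, and for *Aldoc* it was −2.33 and 0.81.

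The populations that were left pair up in 3 more ways, which share libraries with the comparisons above. PDGFRA- over GAL1+ cells gave 9 called members (beside 20.1% of all genes), 5 higher (*Ddit4* 0.98, *Aldoc* 1.26, *Pfkm* 1.21, *Plod2* 0.84, *Hk1* 0.50) and 4 lower (*Hmox1* −1.43, *Mxi1* −0.92, *Hk2* −0.87, *Egln3* −0.36). *Ddit4* had the smallest adjusted p (0.00506) and was higher in 3 of 3 tumors without overlap. Markers moved in this pair too, with 3 of 12 pan-leukocyte, 4 of 9 macrophage and 6 of 9 microglia markers lower and 5 of 7 oligodendrocyte-lineage markers higher in PDGFRA- cells. Without PDGFRA- cells of T5 the count was 15, 5 higher and 10 lower (beside 5837 of all 18180 genes in place of 3652), and *Ndrg1*, *P4ha1*, *Hif1a*, *Pfkfb3*, *Aldoa*, *Gapdh* and *Pkm* joined the lower genes while *Egln3* dropped out. The count of members went down with that of all genes, to 0 without T4 (0 of all genes), 1 without GAL1+ cells of T4 (685), 2 without T3 (788), GAL1+ cells of T5 (1298) or PDGFRA- cells of T4 (1026), 3 without PDGFRA- cells of T3 (1312) and 5 without GAL1+ cells of T3 (2594). Quantile normalization gave 6 higher and 2 lower, and median centring 4 and 6.

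PDGFRA- over GAL1- cells gave 9 called members (beside 23.1% of all genes), 7 higher (*Hmox1* 2.40, *Ndrg1* 1.87, *Mxi1* 1.25, *Hk2* 1.07, *P4ha2* 1.00, *Hif1a* 0.72, *Gapdh* 0.68) and 2 lower (*Aldoc* −1.06, *Plod2* −0.53), each with the same sign in 3 of 3 tumors. Markers higher in PDGFRA- cells of this pair were 12 of 12 pan-leukocyte, 9 of 10 endothelial, 7 of 7 pericyte, 8 of 9 macrophage and 7 of 9 microglia markers, and 3 of 7 oligodendrocyte-lineage markers were lower. Without PDGFRA- cells of T5 it was 3 members, *Ndrg1*, *Mxi1* and *Hmox1* (beside 2009 of all genes in place of 4200), and it was 2 in a fit on only the libraries of these populations (beside 1328). The count was also 2 without T5 (920 of all genes), 3 without T3 (1698) or GAL1- cells of T5 (1851), 5 without GAL1- cells of T4 (2330) and 15 without PDGFRA- cells of T4 (6021). Quantile normalization gave 6 higher and 3 lower, and median centring 5 and 3. PDGFRA+ over GAL1- cells gave 2 called members (beside 8.27% of all genes), *Hmox1* at 2.33 (adjusted p = 0.00228) and *Mxi1* at 1.06 (adjusted p = 0.0311), both in 3 of 3 tumors without overlap, and 8 at an unadjusted p under 0.05 (beside 17.3% of all genes). Fitted on only the libraries of these 2 populations, 10 members were called, 7 higher and 3 lower, beside 3386 of all genes in place of 1504. *Hmox1* lost its call without T3, where the count was 0 (0 of all genes), and *Mxi1* in 10 of 15 such fits, while *Hk2* joined without PDGFRA- cells of T4 (count 3, beside 1920 of all genes) and *Ndrg1* and *Hk2* without PDGFRA- cells of T5 (count 4, beside 1886). In the same pair 12 of 12 pan-leukocyte and 9 of 10 endothelial markers were higher in PDGFRA+ cells. So were 8 of 9 macrophage, 8 of 9 microglia and 5 of 7 pericyte markers, and 0 of 7 oligodendrocyte-lineage markers were called.

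With all tumors averaged, the populations form a series for most members. The mean log2 CPM rose from GAL1- through PDGFRA+ and PDGFRA- to GAL1+ cells for 21 members, 10 HIF genes and 11 enzymes (25.9% of all genes do so), and fell in that order for 6, *Egln1*, *Plod2*, *Pdk1*, *Hk1*, *Pfkm* and *Aldoc* (26.2% of all genes). Both PDGFRA populations lay between the GAL1 populations for 29 members (67.6% of all genes). The exceptions were *Adm*, *Ankrd37*, *Kdm3a*, *Ddit4*, *Epas1*, *Gpi1* and *Eno1*. This order of the PDGFRA populations rests in part on PDGFRA- cells of T5. From T3 and T4 alone, a choice made after the data were seen, the means rose for 8 members (18.0% of all genes) and fell for 4 (18.6% of all genes), and both PDGFRA populations lay between the others for 23 (60.2% of all genes). *Hif1a*, *Hmox1*, *Mxi1*, *Hk2* and *Pfkfb3* were among those that no longer rose in this order. Over all tumors, *Epas1* had its highest mean in PDGFRA+ cells and *Ddit4* in PDGFRA- cells. Neighbours in this order often did not differ beyond their spread, since no member separated PDGFRA+ from PDGFRA- cells by the test.

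Tumors differed too, and in the same members across gates. T3 was above T5 in all 4 populations for 15 members (26.2% of all genes), 7 HIF genes (*Adm*, *Bnip3*, *Ankrd37*, *Egln1*, *Plod2*, *Higd1a* and *Pdk1*) and 8 enzymes (*Hk1*, *Gpi1*, *Pfkl*, *Aldoc*, *Pgk1*, *Pgam1*, *Eno1* and *Ldha*), and T5 above T3 for 0 members (22.9% of all genes). *Egln1*, *Pdk1* and *Hk1* had T3 above T4 and T4 above T5 in each population. *Pdk1* stood at 5.82 in T3 and 4.72 in T5 among GAL1- libraries, and at 5.56 and 4.78 among GAL1+ libraries, while its population means spanned 0.20. *Eno1* was higher in T3 than in T5 by 0.69 to 0.87 across the 4 populations, and its population means spanned 0.09. The range of the tumor means was larger than that of the population means for 13 members, 6 HIF genes and 7 enzymes (29.1% of all genes). Each tumor is 1 animal, so tumor and library handling cannot be told apart, and T3 had the most reads of the tumors in each population; the tumor difference was described and not tested.

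**Figure D3:**
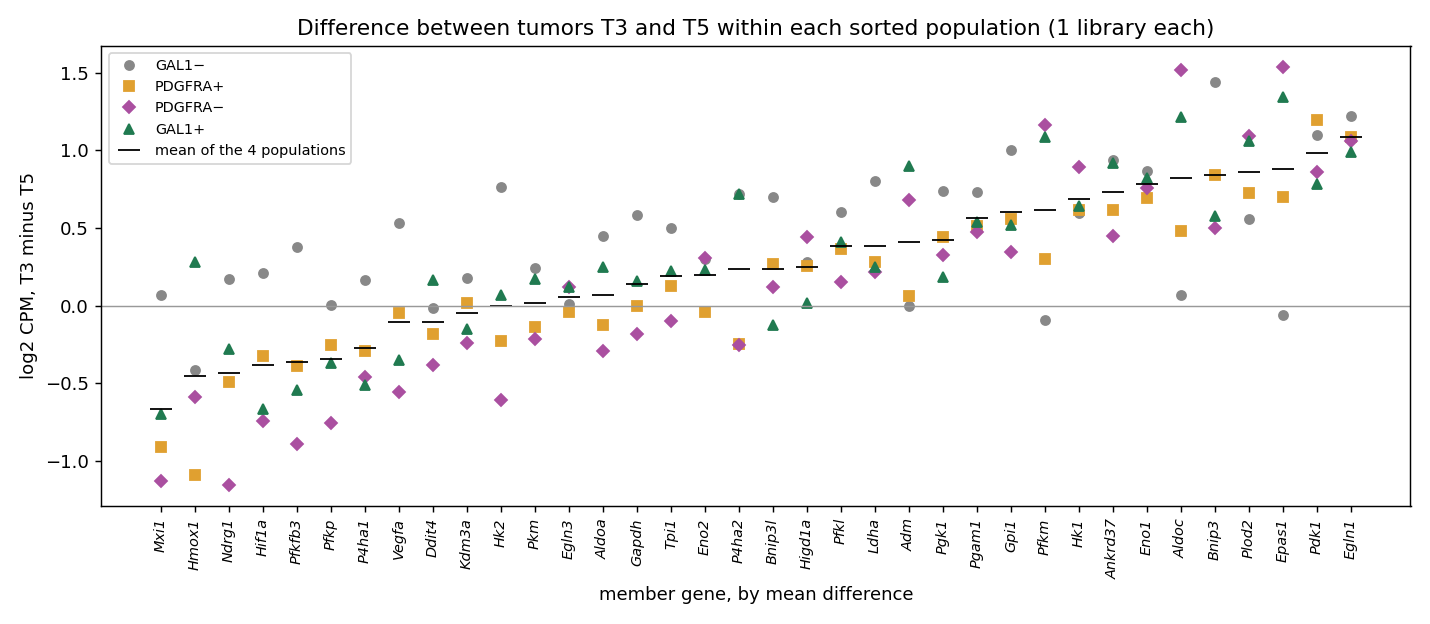
Difference in log2 CPM between tumor T3 and tumor T5 (y axis) for each member gene (x axis, ordered by the mean), with 1 point per sorted population and a bar for their mean. All 4 points lie above 0 for 15 members, among them *Egln1* (0.99 to 1.22) and *Pdk1* (0.78 to 1.20), and for 0 members do all lie below.

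Some enzyme genes have processed copies in the mouse genome, and reads that fit both were shared out as fractions. The copies were picked after their values were seen. *Eno1b* had log2 fold changes of GAL1+ over GAL1- cells of −0.06 beside −0.08 for *Eno1*, *Pgk1-rs7* of 0.36 beside 0.33 for *Pgk1*, *Pgam1-ps2* of 0.38 beside 0.40 for *Pgam1* and *Gpi-ps* of 0.16 beside 0.12 for *Gpi1*. Among copies of other called members, *Ldha-ps2* was at 0.61 beside 0.57 for *Ldha*, *Aldoart1* at 1.06 beside 0.96 for *Aldoa*, *Tpi-rs11* at 0.70 and *Tpi-rs10* at 0.51 (not called, adjusted p = 0.0567) beside 0.61 for *Tpi1*, and *Pgam1-ps1* at 0.54 differed more from *Pgam1*. All had the sign of their parent. For these parents a change in the copy and a change in the parent cannot be told apart.

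Promoter windows of the members were searched for the core of the hypoxia response element, the DNA letters that HIF is known to bind, to show where the letters occur in genes that rose, fell or did neither. RefSeq windows on GRCm38.p6 (250 bases before and 50 after a start) matched 31 members with 49 windows, and none was listed for *Ndrg1*, *Bnip3l*, *Plod2*, *Epas1* and *Hmox1*. On either strand, ACGTG was found in 26 of the 49 windows (53.1%) and in 19.6% of all 32851 windows, and ACGTG or GCGTG in 37 (75.5%) and in 43.8% of all windows. ACGTG was in a window of 14 of 15 matched members that were higher in GAL1+ cells, of 6 of 6 that were lower and of 2 of 10 that were not called, and genes with several windows had more chances to hold it. With ACGTG or GCGTG the numbers were 14 of 15, 6 of 6 and 8 of 10, so most members that were not called held 1 of these cores too. The letters thus stood before genes of both directions. Shown are the 250 bases before the start of members with 1 window that holds ACGTG, picked after the counts were seen, so that genes of each direction stand side by side: *Hk2* (chr6:82774455-82774704, minus strand), *Egln3* (chr12:54203875-54204124, minus) and *P4ha2* (chr11:54100674-54100923, plus) were higher in GAL1+ cells, *Egln1* (chr8:124949255-124949504, minus) and *Ddit4* (chr10:59951771-59952020, minus) were lower, and *Ankrd37* (chr8:45999851-46000100, minus) and *Pgk1* (chrX:106186850-106187099, plus) were not called. Capitals mark ACGTG or GCGTG or their reverse complements CACGT and CACGC, which can overlap each other, and a match describes the letters without showing that a factor binds.
Hk2: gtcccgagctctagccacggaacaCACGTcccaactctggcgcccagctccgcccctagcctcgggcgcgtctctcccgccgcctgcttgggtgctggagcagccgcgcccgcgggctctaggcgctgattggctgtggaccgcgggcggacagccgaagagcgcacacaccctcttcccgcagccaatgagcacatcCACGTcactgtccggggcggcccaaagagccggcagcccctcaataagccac
Egln3: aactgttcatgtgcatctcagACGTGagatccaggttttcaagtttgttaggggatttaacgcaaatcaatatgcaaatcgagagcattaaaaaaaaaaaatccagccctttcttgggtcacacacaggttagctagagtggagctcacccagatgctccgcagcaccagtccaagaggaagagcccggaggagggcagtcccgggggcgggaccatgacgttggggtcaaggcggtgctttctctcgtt
P4ha2: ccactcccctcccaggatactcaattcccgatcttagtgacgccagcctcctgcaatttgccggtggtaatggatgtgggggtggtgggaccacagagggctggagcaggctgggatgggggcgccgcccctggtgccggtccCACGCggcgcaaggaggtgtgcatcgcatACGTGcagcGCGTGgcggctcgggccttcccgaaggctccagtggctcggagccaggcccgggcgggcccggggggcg
Egln1: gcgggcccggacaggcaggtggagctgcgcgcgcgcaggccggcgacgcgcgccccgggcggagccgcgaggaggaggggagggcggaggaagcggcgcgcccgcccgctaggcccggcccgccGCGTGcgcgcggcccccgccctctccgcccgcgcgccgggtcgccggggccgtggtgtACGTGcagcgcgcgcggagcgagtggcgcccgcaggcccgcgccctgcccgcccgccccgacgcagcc
Ddit4: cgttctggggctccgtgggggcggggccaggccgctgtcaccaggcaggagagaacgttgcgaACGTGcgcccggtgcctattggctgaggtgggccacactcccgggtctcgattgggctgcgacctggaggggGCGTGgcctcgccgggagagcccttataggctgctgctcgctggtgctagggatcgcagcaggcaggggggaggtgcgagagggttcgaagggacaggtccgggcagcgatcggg
Ankrd37: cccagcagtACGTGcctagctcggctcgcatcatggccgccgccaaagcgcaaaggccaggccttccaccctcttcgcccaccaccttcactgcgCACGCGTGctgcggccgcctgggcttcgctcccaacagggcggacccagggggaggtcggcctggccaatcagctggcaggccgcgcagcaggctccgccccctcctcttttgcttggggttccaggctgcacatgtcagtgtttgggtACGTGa
Pgk1: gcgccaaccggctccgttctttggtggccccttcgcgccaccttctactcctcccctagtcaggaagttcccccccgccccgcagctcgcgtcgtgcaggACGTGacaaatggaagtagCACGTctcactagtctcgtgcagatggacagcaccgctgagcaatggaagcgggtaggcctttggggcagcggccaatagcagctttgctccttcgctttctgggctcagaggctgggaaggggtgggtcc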

How the data were processed

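Bulk RNAseq values of 12 libraries (4 sorted populations from each of 3 tumors) were taken as the authors deposited them, in log2 CPM with the offset of 0.5 that voom adds. They had used fastp for trimming, STAR (2 passes, mm39) for alignment and featureCounts on exons, where multi-mapping reads count as fractions, and had required a CPM above 1 for 3 or more samples before TMM and voom. Read counts were worked back by taking each library's minimum as 0 reads, after which 41.3% to 59.2% of its values were whole within 0.01. Limma 3.58.1 in R 4.3.3 was fitted to all 18180 genes, with a term per population and the tumor as a block, and its moderated test had 6 residual and 3.50 prior degrees of freedom, a trend of variance on mean, and Benjamini-Hochberg adjustment over all genes. Tumor numbers in the labels pair the libraries, and after population means were removed, libraries of 1 tumor had a mean correlation across genes of 0.486 (0.140 to 0.662, 18 pairs). The fit was first tried on simulated data.

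Members and lists were chosen with earlier results of these data known. Values in each library are given for *Hif1a*, *Epas1*, *Egln1*, *Egln3*, *Vegfa*, *Adm*, *Hmox1*, *Hk2*, *Pfkfb3*, *Aldoc*, *Eno2*, *Ldha*, *Gapdh* and *Pgk1*, for the 5 called members with the largest change in GAL1+ over GAL1- and in PDGFRA+ over GAL1+ cells, and for the 3 with the smallest p in PDGFRA+ over PDGFRA- cells, and *Plod2* and *Hk1* were added after their values were seen. Alternatives were no tumor block, only the libraries of the 2 populations compared, no variance trend, a robust prior, a pseudocount of 1 CPM, a filter that keeps genes over 1 or over 3 log2 CPM in 3 libraries, quantile normalization, median centring, an added fold change above 1.5, and leaving out each of 3 tumors and 12 libraries. A population left with 2 libraries is assumed to vary like the others. Median centring shifted the median log2 fold change of all genes by −0.16 for PDGFRA+ over GAL1+, −0.14 for PDGFRA- over GAL1+ and −0.11 for PDGFRA+ over GAL1- cells, and quantile normalization by −0.13 for PDGFRA+ and −0.14 for PDGFRA- over GAL1- cells. Promoter sequences are from RefSeq on GRCm38.p6, and none of the coordinates is on mm39. Figures were drawn with matplotlib 3.10.9. Whether sorted cells were also gated on CD45 is stated in the study's results and not in its account of the sort.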

Additional observations from a re-analysis of the deposited data

Results flagged for a closer look

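The effect of the gate was compared between the sorts, as the log2 fold change of GAL1+ over GAL1- cells minus that of PDGFRA+ over PDGFRA- cells, in the same limma fit. These are listed because that difference itself passed the test, for 23 of 36 members (beside 51.1% of all genes). The signs of the gates are a matter of convention, since the marker-positive gate was taken first in each sort. With the PDGFR gate turned (PDGFRA- over PDGFRA+ subtracted), an alternative added after the data were seen, 15 members passed, 9 positive and 6 negative (beside 5651 of 18180 genes). *Ddit4* (−1.33) joined, and *Vegfa*, *Ndrg1*, *Bnip3*, *Bnip3l*, *P4ha2*, *Epas1*, *Aldoa*, *Tpi1* and *Pgam1* dropped out. *Ndrg1* was then at 1.00 and *Aldoc* at −1.51, so the values below hold for the first choice of sign. Among the HIF genes, the difference was positive for *Hmox1* (3.90), *Ndrg1* (3.22), *Mxi1* (2.36), *P4ha2* (1.93), *Hif1a* (1.54), *Bnip3l* (0.98), *Bnip3* (0.92), *P4ha1* (0.85), *Vegfa* (0.80) and *Egln3* (0.80). It was negative for *Plod2* (−1.53), *Epas1* (−1.30) and *Egln1* (−0.57). Among the enzymes, it was positive for *Hk2* (2.15), *Gapdh* (1.48), *Pfkfb3* (1.31), *Aldoa* (1.23), *Pkm* (1.07), *Tpi1* (0.77) and *Pgam1* (0.49). It was negative for *Aldoc* (−3.14), *Pfkm* (−2.27) and *Hk1* (−0.69). All tumors shared the sign for these members but *Tpi1* and *Pgam1*, where T4 was at −0.01. *Ddit4*, called between the Galectin-1 gates, was not among the 23. *Ptprc*, which encodes CD45, had a difference of 4.59, and 12 of 12 pan-leukocyte, 9 of 9 macrophage, 8 of 9 microglia, 9 of 10 endothelial and 7 of 7 pericyte markers had a positive difference that passed, and 7 of 7 oligodendrocyte-lineage markers a negative difference. What part these cells have was not tested. Quantile normalization gave 12 positive and 7 negative in place of 17 and 6. *Eno1* joined there. Without T3 the count was 15 (beside 6275 of all genes in place of 9290), as *Vegfa*, *Bnip3*, *Egln1*, *Hk1*, *Aldoa*, *Tpi1*, *Pgam1* and *Pkm* lost their call, and *Epas1* lost it without T5.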

How the results depend on the processing

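Over the alternatives that left no library out, 901 values of the 36 members in GAL1+ over GAL1-, PDGFRA+ over PDGFRA- and PDGFRA+ over GAL1+ cells kept their direction and their side of the threshold or moved by less than 1 SD between tumors, 49 lost and 9 gained a call, and 13 more moved, with 0 called values reversed, and the other comparisons were followed by their counts alone. Without the tumor block, the members called were 6 for PDGFRA+ over GAL1+ (beside 3154 of all genes in place of 6900) and 1 for PDGFRA- over GAL1+ (725 in place of 3652). They were 1 for PDGFRA+ over GAL1- (612 in place of 1504) and 3 for PDGFRA- over GAL1- (1444 in place of 4200). For the difference of the sorts they were 15 (6692 in place of 9290). Turning the PDGFR gate, added later, also gave 15 for that difference (beside 5651 of all genes). With only the libraries of the 2 populations, the members called were 10 for PDGFRA+ over GAL1- (beside 3386 of all genes) and 2 for PDGFRA- over GAL1- (1328). This alternative cannot be made for the difference of the sorts, which uses all populations. Without a variance trend the members called were 5 for PDGFRA- over GAL1+ (beside 2693 of all genes) and 1 for PDGFRA+ over GAL1- (1317). With median centring they were 1 for PDGFRA+ over GAL1- (1271). With an added fold change above 1.5 they were 13 for PDGFRA+ over GAL1+, where all genes were not counted. The median of the HIF genes moved to 0.17 with quantile normalization for GAL1+ over GAL1-. For PDGFRA+ over GAL1+ it moved to −0.37 with a pseudocount of 1 CPM, −0.33 with quantile normalization and −0.57 with median centring, and the median of the enzymes to −0.0440 with quantile normalization. For each of these moves the cause was not tested.

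When a tumor or a library was left out, the members called are given with all genes called in the same fit in brackets. They were 19 (8385) to 27 (11087) for GAL1+ over GAL1- and 0 for PDGFRA+ over PDGFRA- (at most 5 of all genes). They were 3 (2110) to 24 (7887) for PDGFRA+ over GAL1+ and 0 (0) to 15 (5837) for PDGFRA- over GAL1+. For PDGFRA+ over GAL1- they were 0 (0) to 4 (1886), and for PDGFRA- over GAL1- 2 (920) to 15 (6021). For the difference they were 15 (6275) to 26 (10171). Medians of the HIF genes were 0.25 to 0.68, −0.31 to −0.13 and −0.49 to −0.36, and of the enzymes 0.14 to 0.48, −0.29 to 0.04 and −0.35 to −0.15, for GAL1+ over GAL1-, PDGFRA+ over PDGFRA- and PDGFRA+ over GAL1+. Fewer libraries leave fewer degrees of freedom. All members were well above the floor of 3 reads, so depth did not limit detection.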
